A study of Homo sapiens with 8 samples.

Results

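CYP1B1, a cytochrome P450 of family 1, was followed here with 5 other genes of the aryl hydrocarbon receptor pathway, CYP1A1, AHR, AHRR, ARNT and TIPARP, in SK-Hep1 cells. The 6 genes were taken by symbol from a table of 28278 genes, and all 6 passed the filter on low counts that left 15684 genes for testing. They were listed as the receptor, its partner, its repressors and its best known enzyme targets, to see which of them accompanied a rise of CYP1B1 after COL6A3 siRNA. That rise was already known from these data, so it is described and not tested.

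SK-Hep1 is an established human liver cancer line, and poly(A)-selected RNA from it was sequenced in 8 libraries, 2 biological replicates in each of 4 groups. The first group (siCOL6A3 + rhETP) was sorafenib-resistant (SR) cells transfected with siRNA against COL6A3 and given recombinant endotrophin, a fragment cleaved from the end of the collagen VI α3 chain that COL6A3 encodes. The second (siCOL6A3) was SR cells with the COL6A3 siRNA alone, the third (SR siCtrl) was SR cells with control siRNA, and the fourth (SS siCtrl) was sorafenib-sensitive (SS) cells with control siRNA. Sorafenib is a kinase inhibitor used against hepatocellular carcinoma. The labels gave no siRNA sequence, endotrophin dose or time, no SS group with COL6A3 siRNA and no SR siCtrl group with endotrophin. The sample titles named no batch.

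Libraries held 30461668 to 44116043 counts. COL6A3 averaged 6.36 FPKM in siCOL6A3 + rhETP, 4.17 FPKM in siCOL6A3, 12.8 FPKM in SR siCtrl and 1.72 FPKM in SS siCtrl, where FPKM is the number of fragments scaled to transcript length and library size. It thus fell by 1.63 on the log2 scale (SE 0.11) in siCOL6A3 relative to SR siCtrl, with an adjusted p of 1.72e-09 by edgeR's quasi-likelihood test. The hepatocyte genes ALB, APOA1 and TTR were listed at 0 in every library, as was the epithelial cadherin CDH1, while the 5 genes of the epithelial marker list, keratins among them, summed to between 1683 and 2774 FPKM. Of the 5 leukocyte markers, the lymphocyte genes CD3E and MS4A1 were at 0, and the list summed to between 54.5 and 66.5 FPKM. The 6 endothelial markers summed to between 0.474 and 2.465 FPKM, and the 5 fibroblast or stellate markers to between 0.487 and 2.249 FPKM.

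The aryl hydrocarbon receptor, AHR, is a transcription factor of the bHLH-PAS family that waits in the cytoplasm bound to HSP90 and helper proteins. Dioxins, polycyclic hydrocarbons and some tryptophan metabolites bind it, after which it enters the nucleus, pairs with ARNT and binds DNA elements built on the letters GCGTG. CYP1A1, CYP1A2 and CYP1B1, which oxidise hydrocarbons and oestrogens, are its classic targets. AHRR, which competes with AHR for ARNT, and TIPARP, a mono-ADP-ribosyl transferase that acts on AHR, are also targets and feed back on the receptor.

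Start-site windows show where those letters lie in the targets that were compared. Of the 6 genes, 5 had an entry in the RefSeq promoter table (GRCh38.p14, from 250 bases before to 50 bases after each annotated start), and CYP1B1 did not. The motif GCGTG was searched on both strands, together with the longer TNGCGTG that contains it. GCGTG was present in 36.5% of the 35116 windows of this length in the table, and TNGCGTG in 5.51%. The window of CYP1A1 (chr15:74725479-74725778, minus strand) held GCGTG once, 57 bases before the start. The first of the 2 windows of AHRR (chr5:321464-321763, plus strand) held it once, 30 bases before the start and as part of TNGCGTG, and the second window held it 2 times, 247 and 42 bases before its own start. The first of the 3 windows of TIPARP (chr3:156674340-156674639, plus strand) held it 2 times on the opposite strand, read there as CACGC, at 208 and 142 bases before the start, and its other windows did not hold it. These windows are printed because the transcripts of their genes behaved differently from each other in the libraries. They run 5′ to 3′ on the strand of the gene, with the motif in capitals.
CYP1A1: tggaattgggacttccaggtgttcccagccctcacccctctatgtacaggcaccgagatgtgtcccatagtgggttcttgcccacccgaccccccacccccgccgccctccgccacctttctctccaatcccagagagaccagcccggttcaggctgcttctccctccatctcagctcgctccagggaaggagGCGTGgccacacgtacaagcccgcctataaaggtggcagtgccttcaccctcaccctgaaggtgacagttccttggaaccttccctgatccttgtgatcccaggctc
AHRR: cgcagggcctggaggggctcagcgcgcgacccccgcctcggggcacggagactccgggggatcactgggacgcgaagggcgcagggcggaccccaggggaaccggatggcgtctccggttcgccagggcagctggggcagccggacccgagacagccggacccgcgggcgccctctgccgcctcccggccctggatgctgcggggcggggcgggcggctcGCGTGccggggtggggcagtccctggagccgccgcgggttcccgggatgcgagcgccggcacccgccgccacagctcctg
TIPARP: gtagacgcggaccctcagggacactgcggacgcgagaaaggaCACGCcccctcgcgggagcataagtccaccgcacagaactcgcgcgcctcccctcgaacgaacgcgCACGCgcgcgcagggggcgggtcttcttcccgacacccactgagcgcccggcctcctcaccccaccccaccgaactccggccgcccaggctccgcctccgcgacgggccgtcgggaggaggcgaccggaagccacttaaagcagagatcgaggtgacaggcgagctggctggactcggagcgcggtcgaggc
The window of AHR held GCGTG once, 38 bases after the start, and the window of ARNT did not hold it. A match describes the letters of a window and is not a measured binding site.

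CYP1B1 stood at high levels in both groups that had received COL6A3 siRNA and at low levels in both that had not. Its gene lies at chr2:38067509-38076151 in RefSeq. Its FPKM was 11.3 and 10.5 in siCOL6A3 + rhETP, 9.05 and 8.69 in siCOL6A3, 0.287 and 0.596 in SR siCtrl, and 1.04 and 0.771 in SS siCtrl. The 4 siRNA-treated libraries lay far above the 4 control libraries, and no groups overlapped. The values rested on 2572 and 1918 counts in siCOL6A3 + rhETP, 1450 and 1599 counts in siCOL6A3, 45 and 97 counts in SR siCtrl, and 198 and 125 counts in SS siCtrl. The log2 fold change was 4.31 (SE 0.24) in siCOL6A3 relative to SR siCtrl and 4.65 (SE 0.24) in siCOL6A3 + rhETP relative to SR siCtrl. Both are descriptions, since the SR siCtrl libraries took part in the choice of the gene. By the size of its log2 fold change in siCOL6A3 relative to SR siCtrl, CYP1B1 ranked 319 of the 15684 genes tested, counted from the highest. The ranking takes in genes with 0 counts in both SR siCtrl libraries, such as the kynureninase gene KYNU, whose fold changes are not well bounded.

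**Figure D1:**
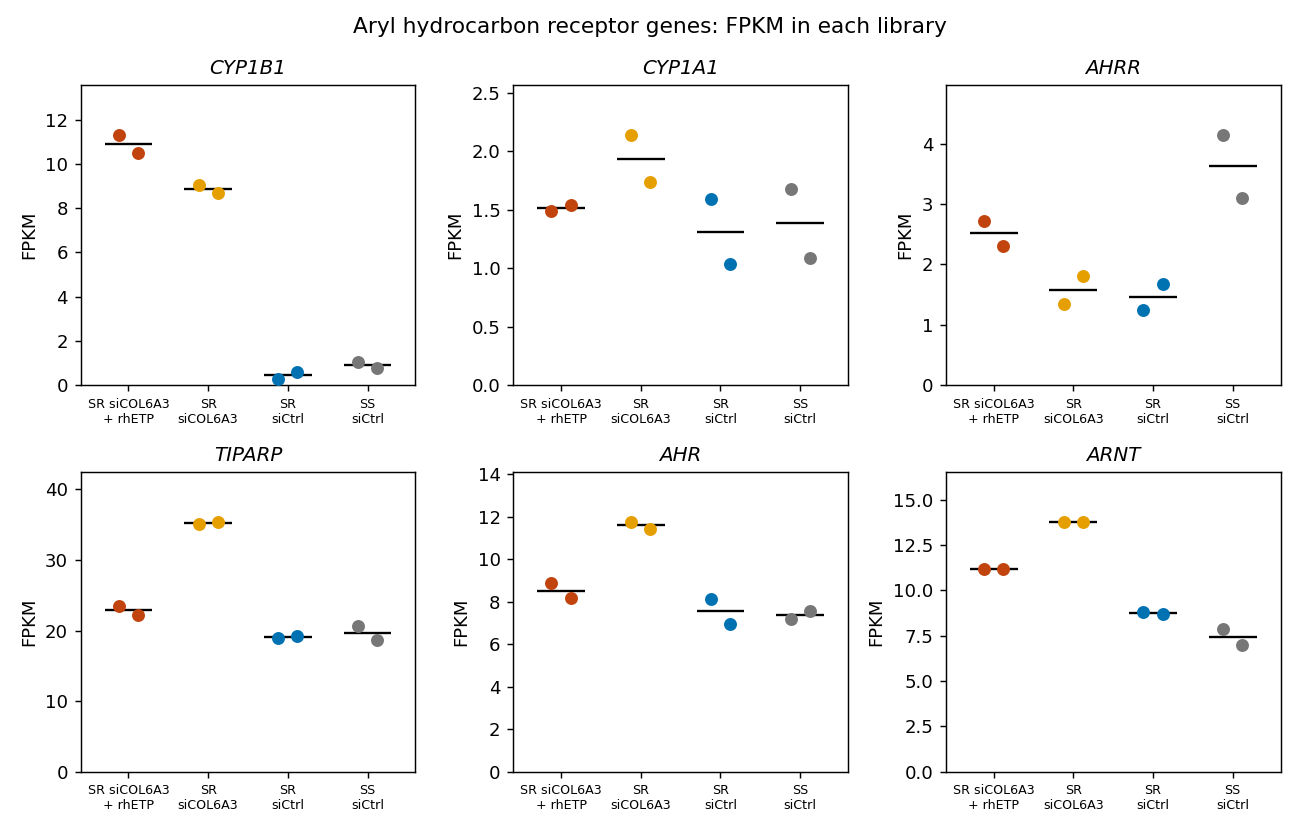
FPKM (y axis, from 0, with its own scale in each panel) of the 6 genes in the 4 groups (x axis); each point is a library and each bar the mean of 2. CYP1B1 was between 8.69 and 11.3 FPKM in the 4 libraries with COL6A3 siRNA and at most 1.04 FPKM in the others, while TIPARP, AHR and ARNT were highest in siCOL6A3 and AHRR was highest in SS siCtrl.

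The comparison of siCOL6A3 + rhETP with SS siCtrl set against each other 2 groups outside the contrast that brought CYP1B1 into view. There CYP1B1 rose by 3.58 on the log2 scale (SE 0.23), with an adjusted p of 5.57e-11 by edgeR's quasi-likelihood test, beside 26.8% of all genes called in either direction. This test is not independent of the choice of the gene. Its error was estimated over all 8 libraries, and siCOL6A3 + rhETP had also received COL6A3 siRNA. A gene is called here when its adjusted p, by the Benjamini-Hochberg method over all 15684 genes, is under 0.05. In the other comparisons CYP1B1 shares a group of libraries with the contrast it was chosen from, so its values there are given with their error and without a test.

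Adding endotrophin to the siRNA did not bring CYP1B1 near the level of SR siCtrl. Its log2 fold change in siCOL6A3 + rhETP relative to siCOL6A3 was 0.34 (SE 0.20). COL6A3 itself was called higher in the same comparison, by 0.65 on the log2 scale (SE 0.11, adjusted p = 0.000739, edgeR), a call that was lost with limma on log2 FPKM. Between the control groups the CYP1B1 log2 fold change was -1.07 (SE 0.25) in SR siCtrl relative to SS siCtrl, and -0.62 without the first SR siCtrl library. Relative to SS siCtrl, CYP1B1 in siCOL6A3 stood at a log2 fold change of 3.24 (SE 0.22). By mean FPKM the groups ran from siCOL6A3 + rhETP, the highest, through siCOL6A3 and SS siCtrl to SR siCtrl.

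The hepatocyte marker list moved with the same groups, at low levels. Its summed FPKM was 6.98 and 6.44 in siCOL6A3 + rhETP, 5.18 and 5.15 in siCOL6A3, 2.54 and 4.23 in SR siCtrl, and 2.57 and 2.24 in SS siCtrl. Of its 6 genes only 1 passed the filter on low counts and 3 were at 0 in every library, and its part in the CYP1B1 values was not tested. In bulk RNA, fewer cells with a transcript and less of it per cell cannot be told apart.

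CYP1A1, the most widely used readout of AHR activity, stayed low in all 4 groups and was not called in any comparison. The gene lies at chr15:74719542-74725528. Its FPKM was 1.49 and 1.54 in siCOL6A3 + rhETP, 2.14 and 1.73 in siCOL6A3, 1.59 and 1.03 in SR siCtrl, and 1.68 and 1.09 in SS siCtrl. The lower of the siCOL6A3 libraries lay just above the highest library of the other 3 groups, and those 3 overlapped. The log2 fold change in siCOL6A3 relative to SR siCtrl was 0.55 (SE 0.42, adjusted p = 0.406, edgeR). It was -0.31 (SE 0.42, adjusted p = 0.778) in siCOL6A3 + rhETP relative to siCOL6A3 and -0.12 (SE 0.42, adjusted p = 0.90) in SR siCtrl relative to SS siCtrl by the same test. CYP1A1 had 85 to 173 counts per library and the widest standard error of the 6 genes. The absence of a call therefore does not exclude a change, even one larger than that error. CYP1A2, the third enzyme of the family, had 20 counts in the first SS siCtrl library and 0 counts in the other 7, where a count of 0 allows up to 3 counts.

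AHRR, the competing repressor, was highest in SS siCtrl, and its order was not that of CYP1B1. The gene lies at chr5:321714-438285. Its FPKM was 2.72 and 2.31 in siCOL6A3 + rhETP, 1.35 and 1.80 in siCOL6A3, 1.24 and 1.67 in SR siCtrl, and 4.14 and 3.10 in SS siCtrl. The siCOL6A3 and SR siCtrl libraries overlapped, those of siCOL6A3 + rhETP lay above both, and those of SS siCtrl above all others. AHRR fell by 1.35 on the log2 scale (SE 0.24) in SR siCtrl relative to SS siCtrl, with an adjusted p of 0.000355 by edgeR's test. Its log2 fold change was 0.10 (SE 0.24, adjusted p = 0.842, edgeR) in siCOL6A3 relative to SR siCtrl and 0.71 (SE 0.24, adjusted p = 0.0729, edgeR) in siCOL6A3 + rhETP relative to siCOL6A3, and neither was called. It was 0.81 (SE 0.24, adjusted p = 0.0203, edgeR) in siCOL6A3 + rhETP relative to SR siCtrl, a call that was lost without the first siCOL6A3 + rhETP library, at 0.69, or without the first SR siCtrl library, at 0.61.

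TIPARP, the transferase that modifies AHR, rose with the siRNA and was nearer to control when endotrophin was added. The gene lies at chr3:156674590-156706770. Its FPKM was 23.6 and 22.3 in siCOL6A3 + rhETP, 35.1 and 35.4 in siCOL6A3, 18.9 and 19.3 in SR siCtrl, and 20.7 and 18.7 in SS siCtrl. Both siCOL6A3 libraries stood above every other library, those of siCOL6A3 + rhETP came next, and the control groups overlapped. The log2 fold change was 0.87 (SE 0.098, adjusted p = 1.1e-06, edgeR) in siCOL6A3 relative to SR siCtrl and -0.58 (SE 0.097, adjusted p = 0.000499, edgeR) in siCOL6A3 + rhETP relative to siCOL6A3. Relative to SR siCtrl, siCOL6A3 + rhETP stood at a log2 fold change of 0.29 (SE 0.098, adjusted p = 0.0433, edgeR), and that call was lost when any of its 4 libraries was left out, at 0.25 to 0.33. In SR siCtrl relative to SS siCtrl the log2 fold change was -0.08 (SE 0.098, adjusted p = 0.659, edgeR).

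The receptor and its partner moved with TIPARP and by less. AHR, at chr7:17298652-17346147, had an FPKM of 8.88 and 8.17 in siCOL6A3 + rhETP, 11.8 and 11.4 in siCOL6A3, 8.14 and 6.96 in SR siCtrl, and 7.20 and 7.57 in SS siCtrl. ARNT, at chr1:150809713-150876599, had an FPKM of 11.2 and 11.2 in siCOL6A3 + rhETP, 13.8 and 13.8 in siCOL6A3, 8.81 and 8.68 in SR siCtrl, and 7.86 and 6.99 in SS siCtrl. Both genes were highest in siCOL6A3 and second in siCOL6A3 + rhETP, with no overlap between these groups. The control groups overlapped for AHR and did not overlap for ARNT. In siCOL6A3 relative to SR siCtrl, AHR rose by 0.61 on the log2 scale (SE 0.12, adjusted p = 0.000868, edgeR) and ARNT by 0.64 (SE 0.12, adjusted p = 0.000523, edgeR). In siCOL6A3 + rhETP relative to siCOL6A3, AHR fell by 0.40 on the log2 scale (SE 0.12, adjusted p = 0.043, edgeR), and the log2 fold change of ARNT was -0.26 (SE 0.12, adjusted p = 0.225, edgeR). The AHR call was lost when any of the 4 libraries compared was left out, at -0.46 to -0.35. Relative to SR siCtrl, siCOL6A3 + rhETP had a log2 fold change of 0.20 (SE 0.12, adjusted p = 0.286, edgeR) for AHR and of 0.38 (SE 0.12, adjusted p = 0.0331, edgeR) for ARNT. The ARNT call was lost when any of the 4 libraries compared was left out, at 0.38 to 0.39. Neither was called in SR siCtrl relative to SS siCtrl, with log2 fold changes of -0.01 for AHR and 0.20 for ARNT.

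**Figure D2:**
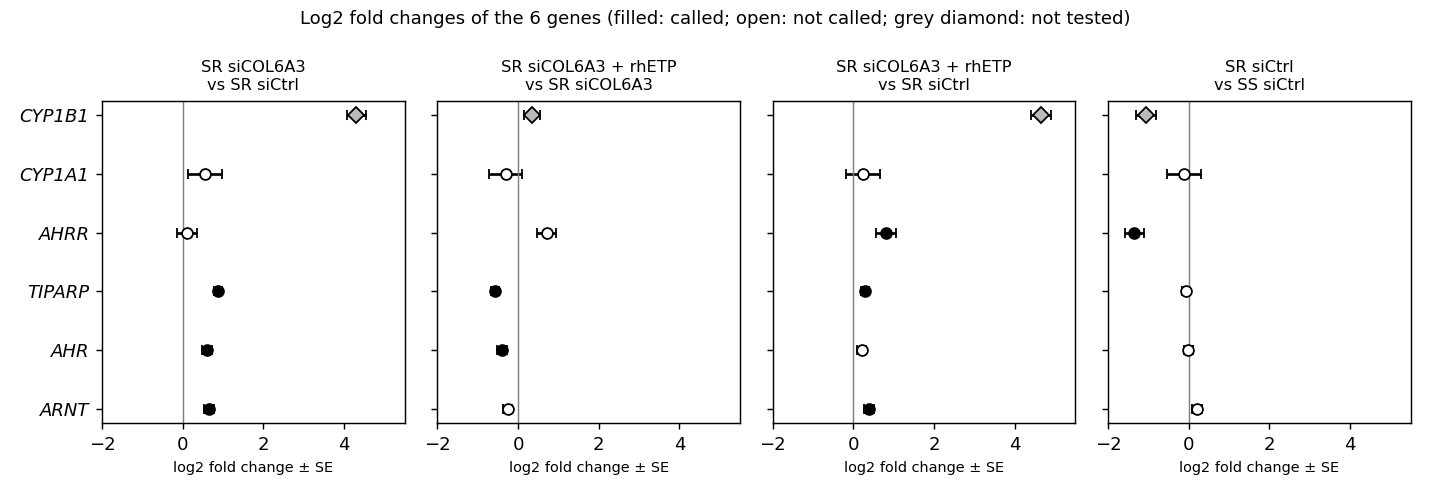
Log2 fold change (x axis) with its standard error for the 6 genes (y axis) in 4 comparisons, the group named first over the group named second; filled points are called, open points are not called, and grey diamonds are the CYP1B1 values, given without a test. CYP1B1 stands at 4.31 and 4.65 in the comparisons with SR siCtrl, where the other 5 genes lie between 0.10 and 0.87.

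Counted over the 5 members other than CYP1B1, 3 genes rose and none fell in siCOL6A3 relative to SR siCtrl, beside 11.4% of all genes called higher and 10.9% called lower. TIPARP and AHR fell and none rose in siCOL6A3 + rhETP relative to siCOL6A3, beside 7.77% of all genes called, 3.36% lower and 4.41% higher. AHRR fell and no other member was called in SR siCtrl relative to SS siCtrl, beside 9.30% of all genes called lower and 6.52% called higher. AHRR, ARNT and TIPARP were called higher in siCOL6A3 + rhETP relative to SR siCtrl and AHR and CYP1A1 were not called, beside 10.1% of all genes called higher and 8.93% called lower. TIPARP, AHR and ARNT were called higher and AHRR lower in siCOL6A3 relative to SS siCtrl, beside 27.6% of all genes called in either direction. These comparisons share groups of libraries, so the counts are not independent of each other.

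The chaperones that hold AHR in the cytoplasm were lower with the siRNA, in small steps. HSP90AA1 and HSP90AB1, which encode cytosolic HSP90, and PTGES3, which encodes its helper p23, fell in siCOL6A3 relative to SR siCtrl by 0.26 (SE 0.052), 0.36 (SE 0.049) and 0.39 (SE 0.066) on the log2 scale. The HSP90 genes have near-identical pseudogenes, and neither the labels nor the files say how shared reads were counted. PTGES3 rose by 0.34 on the log2 scale (SE 0.066, adjusted p = 0.00214, edgeR) in siCOL6A3 + rhETP relative to siCOL6A3. Its FPKM was 169 and 177 in siCOL6A3 + rhETP, 144 and 138 in siCOL6A3, 188 and 177 in SR siCtrl, and 160 and 159 in SS siCtrl. The siCOL6A3 libraries were the lowest of the 8, the opposite of their place for AHR and ARNT.

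The neighbours of CYP1B1 were read because overlapping transcripts can share reads and neither the labels nor the files say how reads were counted. RMDN2, which encodes a microtubule-associated protein, ends 370 bases from CYP1B1 in RefSeq (chr2:37920901-38067138). In the GENCODE annotation of the same genome the ends of RMDN2 and CYP1B1, which lie on opposite strands, overlap. RMDN2 had an FPKM of 2.38 and 2.12 in siCOL6A3 + rhETP, 2.52 and 2.63 in siCOL6A3, 0.875 and 1.32 in SR siCtrl, and 1.15 and 1.61 in SS siCtrl, from 94 to 370 counts per library. All 4 siRNA-treated libraries were above the 4 control libraries, and the control groups overlapped. Its log2 fold change was 1.21 (SE 0.33, adjusted p = 0.0093, edgeR) in siCOL6A3 relative to SR siCtrl, and the call was lost without the first SR siCtrl library, at 0.95. Whether reads of CYP1B1 entered the RMDN2 count was not tested. The antisense gene CYP1B1-AS1 had 0 counts in all 8 libraries.

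Among other genes reported as AHR targets, NEDD9, SLC7A5 and IL1B rose with the siRNA and NQO1 fell. The list held 25 genes, of which 17 passed the filter on low counts, and 13 of these were not among the 6 followed here. In siCOL6A3 relative to SR siCtrl, 3 of these 13 rose and 1 fell, with a median log2 fold change of 0.28, against a median of 0.0042 over all genes tested and beside 11.4% of all genes called higher and 10.9% called lower. NEDD9, a scaffold protein of focal adhesions, came nearest to CYP1B1. It had 243 and 179 counts in siCOL6A3 + rhETP, 159 and 135 counts in siCOL6A3, 6 and 12 counts in SR siCtrl, and 64 and 22 counts in SS siCtrl. The siRNA-treated libraries lay above all controls, as for CYP1B1, at far lower counts. The log2 fold change of NEDD9 was 3.91 (SE 0.65, adjusted p = 0.000121, edgeR) in siCOL6A3 relative to SR siCtrl.

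SLC7A5, a transporter of tryptophan and other large amino acids, rose by 0.80 on the log2 scale (SE 0.074, adjusted p = 6.94e-08, edgeR) in siCOL6A3 relative to SR siCtrl. Its FPKM was 207 and 209 in siCOL6A3 + rhETP, 148 and 172 in siCOL6A3, 90.7 and 91.8 in SR siCtrl, and 99.3 and 108 in SS siCtrl. No groups overlapped, and siCOL6A3 + rhETP was the highest. The third that rose was the cytokine gene IL1B, by 0.74 on the log2 scale (SE 0.19, adjusted p = 0.00699, edgeR), a gene named after its values were seen. NQO1, a quinone reductase that is also a target of the oxidative stress factor NRF2, fell by 0.57 on the log2 scale (SE 0.14, adjusted p = 0.00542, edgeR), a call that was lost without the second SR siCtrl library, at -0.39. NFE2L2, which encodes NRF2, was called in none of the 4 comparisons, with log2 fold changes between -0.05 and 0.05. These are transcript levels, and the protein and its activity were not measured.

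NQO1 was lowest where CYP1B1 was highest. Its FPKM was 6.06 and 6.31 in siCOL6A3 + rhETP, 8.72 and 8.42 in siCOL6A3, 11.3 and 14.0 in SR siCtrl, and 32.3 and 33.9 in SS siCtrl. No groups overlapped, with SS siCtrl far above the rest. NQO1 fell by 1.01 on the log2 scale (SE 0.15, adjusted p = 2.87e-05, edgeR) in siCOL6A3 + rhETP relative to SR siCtrl and by 1.43 (SE 0.14, adjusted p = 1.63e-07, edgeR) in SR siCtrl relative to SS siCtrl.

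SERPINB2 and EREG led the target genes that rose when endotrophin was added. In siCOL6A3 + rhETP relative to siCOL6A3, 3 of the 13 rose and 1 fell, beside 4.41% and 3.36% of all genes, with a median log2 fold change of 0.18. SERPINB2, an inhibitor of plasminogen activators, had an FPKM of 34.7 and 38.4 in siCOL6A3 + rhETP, 18.2 and 17.4 in siCOL6A3, 15.2 and 15.7 in SR siCtrl, and 32.1 and 31.9 in SS siCtrl. The siCOL6A3 + rhETP and SS siCtrl libraries were high, and the other 4 low. SERPINB2 rose by 1.08 on the log2 scale (SE 0.12, adjusted p = 3.67e-06, edgeR) in siCOL6A3 + rhETP relative to siCOL6A3. EREG, which encodes the EGF receptor ligand epiregulin, rose by 0.63 (SE 0.12) and SLC7A5 by 0.41 (SE 0.073) in the same comparison, and both calls were lost with limma on log2 FPKM. STC2, a secreted glycoprotein hormone, fell by 0.97 on the log2 scale (SE 0.10, adjusted p = 3.04e-06, edgeR). Its FPKM was 10.4 and 10.2 in siCOL6A3 + rhETP, 20.9 and 20.6 in siCOL6A3, 18.7 and 17.5 in SR siCtrl, and 13.9 and 12.6 in SS siCtrl.

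Between the control groups more of the target list fell than rose in resistant cells. In SR siCtrl relative to SS siCtrl, 7 of the 13 fell and 2 rose, beside 9.30% and 6.52% of all genes, with a median log2 fold change of -0.22 against 0.012 over all genes tested. Over all 17 tested, 9 were lower and under the threshold, a count that takes in CYP1B1, which is given in this comparison without a test. Among the other genes, the SLC7A5, NEDD9 and IL6 calls were lost without the first SR siCtrl library, SLC7A5 at -0.19. Of the 2 that rose, 1 was left without that library or without the second SS siCtrl library. SERPINB2 fell by 1.08 on the log2 scale (SE 0.12, adjusted p = 7.06e-07, edgeR) and EREG by 0.70 (SE 0.12, adjusted p = 0.000188, edgeR). Both stayed called with any of the 4 libraries left out, as NQO1 did. The NEDD9 call, at -2.09 (SE 0.64, adjusted p = 0.027, edgeR), was lost without the first SR siCtrl library, at -1.69, or without the first SS siCtrl library, at -1.30. The IL6 call, at -1.29 (SE 0.41, adjusted p = 0.0347, edgeR), was lost without the first SR siCtrl library, at -1.10, or without the second SS siCtrl library, at -1.09. XDH, the xanthine dehydrogenase gene, rose by 1.59 on the log2 scale (SE 0.33, adjusted p = 0.00145, edgeR), with an FPKM of 3.37 and 3.74 in SR siCtrl and of 1.79 and 0.50 in SS siCtrl, but was not called by DESeq2. Its log2 fold change was 2.79 without the first SS siCtrl library and 0.96 without the second.

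**Figure D3:**
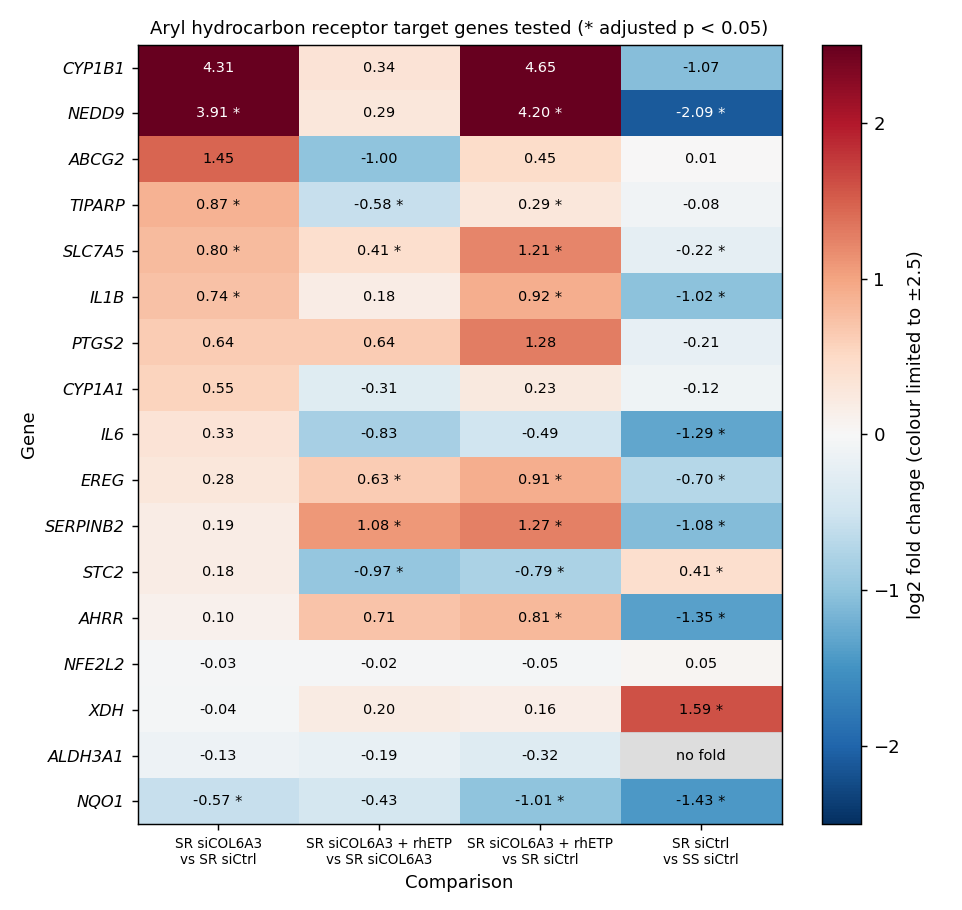
Log2 fold changes of the 17 AHR target genes tested (y axis, ordered by the first column) in 4 comparisons (x axis), the group named first over the group named second; colour and figures give the value, a star an adjusted p under 0.05 (not given for CYP1B1, which was not tested here), and grey cells marked "no fold" a group with 0 counts. CYP1B1 and NEDD9 lead both comparisons with SR siCtrl, NEDD9 at 3.91 and 4.20, and 8 of the 16 genes other than CYP1B1 were called lower in SR siCtrl relative to SS siCtrl.

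No other cytochrome P450 gene tested came near the CYP1B1 value with the siRNA. The table held 56 P450 symbols, of which 23 were at 0 in every library, 15 passed the filter on low counts and 11 averaged at least 1 FPKM. The next largest log2 fold change in siCOL6A3 relative to SR siCtrl was 0.78 (SE 2.2), for CYP39A1, which had 0 to 32 counts per library. Leaving CYP1B1 out, 1 of 14 rose and none fell in siCOL6A3 relative to SR siCtrl, beside 11.4% and 10.9% of all genes. That gene was CYP51A1, the lanosterol demethylase of cholesterol synthesis, at a log2 fold change of 0.32 (SE 0.097, adjusted p = 0.0186, edgeR), lost without the second siCOL6A3 library, at 0.27, or the second SR siCtrl library, at 0.25. CYP51A1 had the highest FPKM of the family, at 36.2 and 40.01 in siCOL6A3 + rhETP, 61.3 and 67.1 in siCOL6A3, 54.6 and 47.1 in SR siCtrl, and 65.7 and 58.7 in SS siCtrl. It was lowest with endotrophin, where it fell by 0.71 on the log2 scale (SE 0.097, adjusted p = 5.35e-05, edgeR) relative to siCOL6A3. By mean FPKM, CYP1B1 stood below only CYP51A1 in siCOL6A3 + rhETP and level with CYP2R1, a vitamin D hydroxylase, in siCOL6A3. In both control groups it stood below all of the other 10 P450 genes that averaged at least 1 FPKM.

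**Figure D4:**
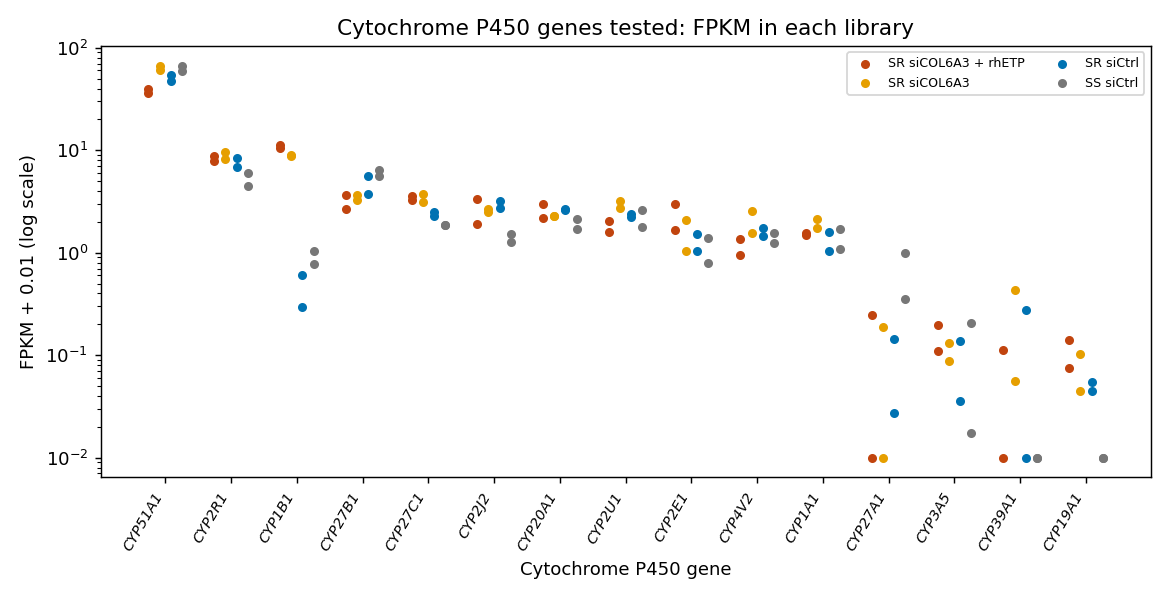
FPKM plus 0.01 on a log axis (y axis) of the 15 cytochrome P450 genes tested, ordered by their mean (x axis); each point is a library, coloured by group. CYP1B1 parts into 4 points between 8.69 and 11.3 FPKM and 4 points at or below 1.04 FPKM, while CYP1A1 spans 1.03 to 2.14 FPKM.

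The relatives of AHR and ARNT and the coactivators that share their PAS domain included several genes that rose with the siRNA. The list held 19 genes, AHR, ARNT and AHRR among them, and 16 were tested. In siCOL6A3 relative to SR siCtrl, 6 rose and 1 fell, beside 11.4% and 10.9% of all genes. The median log2 fold change was 0.32. The 6 that rose take in AHR and ARNT, already counted above. EPAS1, which encodes the hypoxia factor HIF-2α that also pairs with ARNT, had an FPKM of 1.43 and 0.647 in siCOL6A3 + rhETP, 2.60 and 1.63 in siCOL6A3, 0.395 and 0.356 in SR siCtrl, and 2.27 and 2.05 in SS siCtrl. The SR siCtrl libraries were the lowest, and those of siCOL6A3 and SS siCtrl overlapped. EPAS1 rose by 2.47 on the log2 scale (SE 0.37, adjusted p = 3.49e-05, edgeR) in siCOL6A3 relative to SR siCtrl and fell by 2.56 (SE 0.37, adjusted p = 2.74e-05, edgeR) in SR siCtrl relative to SS siCtrl, which share the SR siCtrl libraries. HIF1A, its paralog, fell by 1.15 on the log2 scale (SE 0.095, adjusted p = 6.69e-09, edgeR) in SR siCtrl relative to SS siCtrl.

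NCOA2 and NCOA3, coactivators of nuclear receptors, rose in siCOL6A3 relative to SR siCtrl by 1.05 (SE 0.16) and 0.91 (SE 0.095) on the log2 scale. NCOA3 had an FPKM of 19.98 and 18.04 in siCOL6A3 + rhETP, 22.3 and 21.2 in siCOL6A3, 11.3 and 11.6 in SR siCtrl, and 9.85 and 9.89 in SS siCtrl. Like CYP1B1, it was high in all 4 siRNA-treated libraries. NPAS2, a circadian clock factor, fell by 1.17 on the log2 scale (SE 0.25, adjusted p = 0.00419, edgeR) in siCOL6A3 + rhETP relative to siCOL6A3. There 1 of the 16 genes rose and 3 fell, AHR among the 3, beside 4.41% and 3.36% of all genes. The NPAS2 call was lost with limma on log2 FPKM.

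Enzymes that make or remove tryptophan-derived AHR ligands were also read, in a list with the transporter chains SLC7A5 and SLC3A2. Of 16 genes, 13 were tested, with a median log2 fold change of 0.45 in siCOL6A3 relative to SR siCtrl. There 6 rose and 1 fell, beside 11.4% and 10.9% of all genes. The 6 take in both transporter chains, and SLC7A5 was also counted among the AHR targets. They also take in the enzyme gene HAAO, at 0.85 (adjusted p = 0.0329, edgeR). The HAAO call was lost when any of the 4 libraries compared was left out, at 0.75 to 0.99. TDO2, which opens the kynurenine pathway, was not called in any of the 4 comparisons, and IDO1, which catalyses the same step, had 8 counts in the first siCOL6A3 library, 4 counts in the second SS siCtrl library and 0 counts elsewhere. IL4I1, an amino acid oxidase whose products include AHR ligands, had an FPKM of 3.64 and 4.20 in siCOL6A3 + rhETP, 6.13 and 7.69 in siCOL6A3, 0.908 and 2.14 in SR siCtrl, and 2.52 and 1.80 in SS siCtrl. The siRNA-treated libraries were above all controls, with those of siCOL6A3 the highest. IL4I1 rose by 2.16 on the log2 scale (SE 0.33, adjusted p = 5.2e-05, edgeR) in siCOL6A3 relative to SR siCtrl, and KMO, the kynurenine hydroxylase, by 2.17 (SE 0.43, adjusted p = 0.000796, edgeR).

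KYNU, the kynureninase gene, had few counts, with 6 and 36 in siCOL6A3 + rhETP, 62 and 4 in siCOL6A3, 0 and 0 in SR siCtrl, and 80 and 90 in SS siCtrl. Against a floor of 3 counts per library, its group mean was at least 10.7-fold higher in siCOL6A3 than in SR siCtrl. The mean was at least 6.07-fold higher in siCOL6A3 + rhETP than in SR siCtrl, and at least 26.6-fold lower in SR siCtrl than in SS siCtrl. The second siCOL6A3 library, at 4 counts, and the first siCOL6A3 + rhETP library, at 6 counts, were near that floor. The bounds for the siRNA groups thus hold for the means and not for each library. The siCOL6A3 call was lost without the first siCOL6A3 library, and the siCOL6A3 + rhETP call without its second library or without either SR siCtrl library. All 3 KYNU calls were lost with limma on log2 FPKM. SLC3A2, the partner chain of the SLC7A5 transporter, rose by 0.45 on the log2 scale (SE 0.083, adjusted p = 0.000393, edgeR) in siCOL6A3 relative to SR siCtrl. QPRT, a later enzyme of the pathway that leads to NAD, fell by 0.47 on the log2 scale (SE 0.088, adjusted p = 0.00157, edgeR) in siCOL6A3 + rhETP relative to siCOL6A3.

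The reductase that feeds electrons to P450 enzymes and the enzymes that conjugate their products were read as a list of 22. Of these, 16 were tested, and 3 rose and 2 fell in siCOL6A3 relative to SR siCtrl, with a median log2 fold change of -0.04, beside 11.4% and 10.9% of all genes. POR, the reductase, had an FPKM of 14.2 and 14.2 in siCOL6A3 + rhETP, 14.5 and 14.7 in siCOL6A3, 14.0 and 16.9 in SR siCtrl, and 16.2 and 16.2 in SS siCtrl, and was called in none of the 4 comparisons. Among glutathione transferases, GSTK1 rose by 0.65 (SE 0.12) and MGST3 by 0.57 (SE 0.11) on the log2 scale in siCOL6A3 relative to SR siCtrl, and GSTO1 fell by 0.56 (SE 0.10). GSTK1 fell by 0.63 on the log2 scale (SE 0.12, adjusted p = 0.00149, edgeR) in siCOL6A3 + rhETP relative to siCOL6A3.

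The genes whose profile over the 8 libraries was most like that of CYP1B1 were sought by the Pearson correlation of log2(CPM + 0.1), where CPM is the count scaled to library size, among the 9649 genes that averaged at least 10 CPM. These were MAP3K6 (r = 0.991), a kinase of the MAP kinase cascade, COL6A1 (r = 0.990), which encodes the collagen VI α1 chain, TRIM47 (r = 0.989), PATL1 (r = 0.987), an mRNA decay factor, and PPP6C (r = 0.986), a protein phosphatase subunit. The correlations describe 8 libraries that fall into a high and a low set, in groups that share their treatment. ARNT stood at r = 0.846, TIPARP at 0.752, AHR at 0.706 and AHRR at 0.036, and CYP1A1 was below the level required. COL6A1 had an FPKM of 29.4 and 29.2 in siCOL6A3 + rhETP, 29.3 and 32.7 in siCOL6A3, 7.23 and 9.81 in SR siCtrl, and 11.8 and 12.7 in SS siCtrl. It was high where its partner chain COL6A3 had been targeted by the siRNA.

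**Figure D5:**
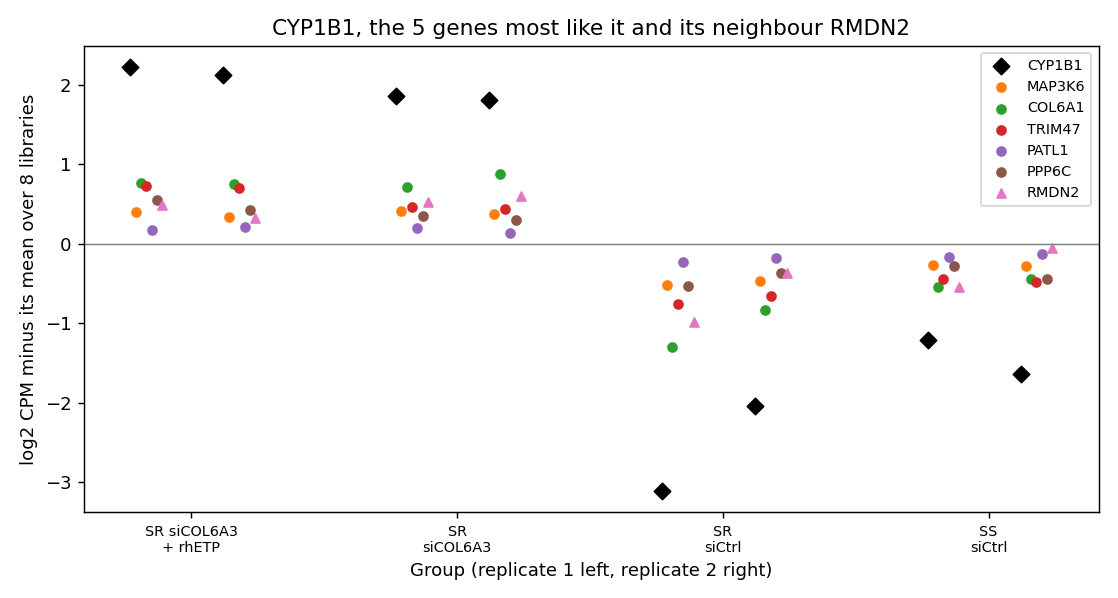
Log2 CPM minus the gene's mean over the 8 libraries (y axis) for CYP1B1, the 5 genes most like it and its neighbour RMDN2, in the 4 groups with both replicates side by side (x axis). Each of the 7 genes was above its mean in all 4 siRNA-treated libraries and below it in all 4 control libraries, with the widest span for CYP1B1.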

How the data were processed

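RNA-seq of 8 SK-Hep1 libraries was read from a table of counts per gene and a table of FPKM, both as deposited by the authors. Reads were placed on the GRCh38 build, per the submitters' processing notes, and no label or header names the aligner, the counter or the strand setting. The deposited FPKM divided the counts by the same length in every library for the 11259 genes checked, to a relative spread of 2.06e-15. Between 72.8% and 77.6% of counts from 1 to 20 were even numbers, against 49.6% to 50.9% of those of 500 or more.

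Counts were tested with edgeR 4.0.16 (R 4.3.3): filterByExpr, TMM factors (0.981 to 1.02), a mean for each group (4 residual degrees of freedom), the quasi-likelihood test and Benjamini-Hochberg adjustment over 15684 genes, threshold 0.05. SE is the absolute log2 fold change over the square root of F. The script was first tested on simulated data. limma 3.58.1 on log2 FPKM plus 1 or 0.1, DESeq2 1.42.0, other filters, a replicate block, halved counts and leaving out each library were alternatives.

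The members, the gene lists and the tests were chosen with earlier results of these data known, and CYP1B1 is tested only in siCOL6A3 + rhETP relative to SS siCtrl. Named by rule were the members, COL6A3, CYP1A2, the neighbours of CYP1B1, up to 4 risen and 4 fallen called genes per list and comparison, and the 5 genes most like CYP1B1. Other genes named were uncalled members of a list described for their role, and IL1B. Of 28278 symbols, 26998 matched RefSeq.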

Additional observations from a re-analysis of the deposited data

How the results depend on the processing

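Of 468 alternative values for the 6 genes, 428 were scored as unchanged, in most cases for the same direction and side of the threshold. For CYP1B1 in siCOL6A3 relative to SR siCtrl no threshold was used. Its values were scored by direction and by whether they lay within the spread of the replicates from the main value. The other CYP1B1 values were scored by the threshold, also where they are given here without a test. The CYP1B1 log2 fold change in siCOL6A3 relative to SR siCtrl was 2.78 on log2 FPKM plus 1, a scale that understates changes of low values. In SR siCtrl relative to SS siCtrl, CYP1B1 was at -1.07 when only those groups were fitted, at -0.41 on log2 FPKM plus 1 and -0.94 on log2 FPKM plus 0.1, and at -1.69 to -0.62 with 1 library left out.

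In siCOL6A3 + rhETP relative to siCOL6A3, AHR was at -0.41 on log2 FPKM plus 1 and -0.44 on log2 FPKM plus 0.1 and not called, and at -0.46 to -0.35 with 1 library left out. AHRR in that comparison was called at 0.70 without a filter on low counts (adjusted p = 0.0491, edgeR) and at 0.71 with only those groups (adjusted p = 0.0438, edgeR). The calls in siCOL6A3 + rhETP relative to SR siCtrl were lost on log2 FPKM plus 1 or plus 0.1, with AHRR at 0.52 and 0.76, ARNT at 0.32 and 0.35, TIPARP at 0.25 and 0.26. With 1 library left out they ranged over 0.61 to 1.06, 0.38 to 0.39 and 0.25 to 0.33.

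Directions that turned were all of values not called. AHR in SR siCtrl relative to SS siCtrl was at 0.026 on log2 FPKM plus 1 and 0.028 on log2 FPKM plus 0.1 and at -0.10 to 0.11 with 1 library left out, where 2 of 4 values (0.11 and 0.03) were positive. AHRR in siCOL6A3 relative to SR siCtrl ranged over -0.12 to 0.36, negative (-0.12 and -0.09) in 2 of 4. CYP1A1 ranged over -0.03 to 0.57 in siCOL6A3 + rhETP relative to SR siCtrl, over -0.44 to 0.23 in SR siCtrl relative to SS siCtrl, positive (0.16 and 0.23) in 2 of 4, and over -0.15 to 0.47 in siCOL6A3 + rhETP relative to SS siCtrl.

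Of the 17 AHR targets counted, CYP1B1 among them, the number that fell in siCOL6A3 relative to SR siCtrl was 0 without the second SR siCtrl library, and the number that rose in siCOL6A3 + rhETP relative to siCOL6A3 was 1 on log2 FPKM. In SR siCtrl relative to SS siCtrl, 1 rose by DESeq2, and with 1 library left out 1 to 2 rose and 5 to 8 fell. Over all genes, siCOL6A3 + rhETP relative to siCOL6A3 gave 1218 calls, against 494 and 490 with limma on log2 FPKM and 651 to 934 with 1 library left out. The counts of AHR targets take in CYP1B1 by the threshold, though it is given without a test in these comparisons. The causes were not tested.

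No effect shared by same-numbered libraries was seen over the genes tested, since their deviations correlated at -0.027 to 0.036. That cannot tell whether same-numbered libraries were prepared together. With a replicate block, 3618 genes were called in siCOL6A3 relative to SR siCtrl, against 3505 without it, and no call of the 6 genes changed.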

Other observations

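The mono-ADP-ribosyl transferases to which TIPARP belongs were read as a list of 12, TIPARP included, of which 11 were tested. In siCOL6A3 relative to SR siCtrl, 6 rose and none fell, with a median log2 fold change of 0.53, beside 11.4% and 10.9% of all genes. In siCOL6A3 + rhETP relative to siCOL6A3, none rose and 5 fell, with a median of -0.37, beside 3.36% of all genes called lower. In SR siCtrl relative to SS siCtrl, none rose and 7 fell, with a median of -0.71, beside 9.30% of all genes called lower. The comparisons share groups of libraries. PARP14, which is also induced by interferon, had an FPKM of 11.1 and 11.9 in siCOL6A3 + rhETP, 16.98 and 20.1 in siCOL6A3, 11.99 and 10.41 in SR siCtrl, and 23.4 and 23.4 in SS siCtrl. It was high in siCOL6A3 and SS siCtrl and low in the other groups, with log2 fold changes of 0.72 (SE 0.10), -0.65 (SE 0.10) and -1.10 (SE 0.10) in those 3 comparisons, each called by edgeR. PARP9, its partner in that response, fell by 2.41 on the log2 scale (SE 0.18, adjusted p = 1.2e-09, edgeR) in SR siCtrl relative to SS siCtrl.

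Of 12 hormone receptors and factors described at the CYP1B1 gene, 10 were tested, and 3 rose and 1 fell in siCOL6A3 relative to SR siCtrl, beside 11.4% and 10.9% of all genes. PPARG, a lipid-sensing nuclear receptor, had an FPKM of 0.884 and 0.868 in siCOL6A3 + rhETP, 0.953 and 1.15 in siCOL6A3, 0.226 and 0.382 in SR siCtrl, and 1.38 and 1.18 in SS siCtrl. It was lowest in SR siCtrl and highest in SS siCtrl, which is not the order of CYP1B1. Its log2 fold change was 1.77 (SE 0.34, adjusted p = 0.000608, edgeR) in siCOL6A3 relative to SR siCtrl. SP3, a factor that binds GC-rich promoters, rose by 0.41 on the log2 scale (SE 0.091, adjusted p = 0.00202, edgeR) in the same comparison, and the oestrogen receptor gene ESR1, at 22 to 114 counts per library, was not called in it.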
